A study of Drosophila melanogaster with 6 samples.

Results

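R1 and R2 are LINE retrotransposons, elements that copy themselves through an RNA intermediate. The regions described here are the annotated copies of class TE_LINE whose superfamily or element name begins with R1 or R2. The rule found 6 elements with 626 copies, out of 4511 LINE copies and 133537 annotated features in all. The R1 superfamily held R1_DM with 103 copies, DMRT1A with 129, DMRT1B with 267, DMRT1C with 103 and R1-2_DM with 15. The R2 superfamily held R2_DM with 9 copies. Copies were numbered in the files without positions, so no coordinates or sequences are shown. Their names do not tell an rDNA insertion from a copy elsewhere in the genome.

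The libraries came from eCLIP of Asterix (Gtsf1), a protein of the nuclear piRNA pathway, in OSS cells, a Drosophila line derived from the somatic sheath of the ovary. In eCLIP, RNA that copurifies with a protein is sequenced and set against RNA of the whole lysate. All 6 libraries came from OSS cells with FLAG-tagged Asterix under its endogenous promoter, and no library from untagged cells was analysed here. There were 2 libraries each of crosslinked IP and crosslinked input, and 1 each of non-crosslinked IP and non-crosslinked input. Crosslinking was by ultraviolet light at 254 nm, the IP used anti-FLAG M2 magnetic beads, and input is lysate that was not put through the IP. Lysates were treated with RNase I. Nothing in the labels says whether the replicates were separate cultures, so p-values measure only the spread between these libraries.

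R1 and R2 insert at fixed sites within the 28S gene of the ribosomal DNA and lack promoters of their own. Their transcripts are read through from the ribosomal transcription unit, and most interrupted units are silent. R2 encodes a single protein with reverse transcriptase and endonuclease activity, and R1 encodes a second, gag-like protein as well. The DMRT1 elements belong to the R1 clade but are not known as rDNA inserters, so the phrase rDNA-inserting applies by name to R1_DM and R2_DM. In ovarian somatic cells the piRNA pathway, with Piwi and Asterix, silences many retrotransposons in the nucleus, and gypsy-like LTR elements are its best-known targets there.

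Total reads were 9948299 and 8259354 in crosslinked IP, 15992638 and 11464862 in crosslinked input, 2619716 in non-crosslinked IP and 4194751 in non-crosslinked input. Ribosomal RNA took 73.2% to 85.8% of annotated reads. Levels below are reads per 1000000 annotated reads (RPM), which are not scaled to element length, so levels of different elements were not ranked. A count of 3, taken as the floor, was 0.191 to 0.386 RPM in the crosslinked libraries, 1.31 RPM in non-crosslinked IP and 0.746 RPM in non-crosslinked input. Markers of somatic ovarian cells summed to 219 and 237 RPM in crosslinked IP, 331 and 353 in crosslinked input, 154 in non-crosslinked IP and 597 in non-crosslinked input. Germline markers, which this culture should lack, summed to between 1.34 and 3.65 RPM in the 6 libraries, and bam and osk had 2 reads or fewer in each. AGO3 had the most germline reads in the crosslinked libraries, and lay above the floor there. It had 0.825 and 1.1 RPM in crosslinked IP and 0.574 and 0.803 RPM in crosslinked input. The somatic sum was lower in IP than in input with and without crosslinking, as the R1 and R2 sum is below, and its part in those results was not tested. Within that list the flam transcript went the other way, with 7.45 and 7.98 RPM in crosslinked IP against 1.72 and 2.41 RPM in crosslinked input, and piwi alone had 424 RPM in non-crosslinked input.

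R1 and R2 reads were few. Together they made up 0.00676% and 0.00674% of annotated reads in crosslinked IP, against 0.00908% and 0.0107% in crosslinked input. Without crosslinking they made up 0.00347% in IP (95% Wilson interval 0.00278 to 0.00431), against 0.0148% in input (0.0137 to 0.016). The share was therefore lower in IP than in input with and without crosslinking, and the crosslinked replicates did not overlap. The mean share in crosslinked IP was 0.682 times that in crosslinked input. Intervals cover counting error only, since the labels do not state whether PCR copies were removed from the counts. Of all LINE reads, R1 and R2 held 7.76% and 7.04% in crosslinked IP, against 15.6% and 16.5% in crosslinked input. Without crosslinking they held 10.2% of LINE reads in IP, against 16.9% in input.

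The first comparison set crosslinked IP against crosslinked input for each element. R1_DM, DMRT1A and DMRT1B were lower in the IP, DMRT1C and R2_DM were not called, and no R1 or R2 element was called higher. The test was edgeR's quasi-likelihood test on element sums, with p-values adjusted by the Benjamini-Hochberg method over 9455 items (genes, elements and other summed features). An item was called at an adjusted p below 0.05. Of the 5 tested elements, 3 were called lower and 0 higher, while 18.3% of all items were called lower and 19.9% higher. At an unadjusted p below 0.05 the counts were the same in edgeR, and DESeq2 called 2 lower and 0 higher.

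R1_DM is the R1 element of the 28S gene. It had 14.0 and 13.3 RPM in crosslinked IP, against 20.6 and 19.5 RPM in crosslinked input. Both IP libraries lay below both inputs, and the log2 ratio was -0.60 ± 0.14 (SE, n = 2 each; edgeR adjusted p = 0.00229). DESeq2 gave a like ratio of -0.58 but did not call it (adjusted p = 0.0775).

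R2_DM is the other element of the 28S gene. It had 12.3 and 14.0 RPM in crosslinked IP, against 11.7 and 12.7 RPM in crosslinked input. These groups overlapped, and R2_DM was higher in the IP in 3 of the 4 pairings of an IP with an input library. Its log2 ratio was 0.07 ± 0.148 (SE, n = 2 each), with a 95% interval of -0.24 to 0.38 (edgeR adjusted p = 0.739).

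Of the DMRT1 elements, DMRT1A and DMRT1B were called lower and DMRT1C was not, and no test compared them with each other. DMRT1A had 6.56 and 6.05 RPM in crosslinked IP, against 10.3 and 12.4 RPM in crosslinked input, a log2 ratio of -0.87 ± 0.175 (SE, n = 2 each; edgeR adjusted p = 0.000658). DMRT1B had 22.4 and 22.5 RPM in crosslinked IP, against 35.2 and 47.1 RPM in crosslinked input, a log2 ratio of -0.91 ± 0.159 (edgeR adjusted p = 0.000162). Both elements were lower in all 4 pairings. DMRT1C had 11.7 and 11.2 RPM in crosslinked IP, against 12.6 and 15.4 RPM in crosslinked input. Its log2 ratio was -0.32 ± 0.158 with a 95% interval of -0.65 to 0.01, and it was not called (edgeR adjusted p = 0.119). It was called lower with no count minimum (log2 ratio -0.45, edgeR adjusted p = 0.0499). With crosslinked input replicate 1 left out its log2 ratio was -0.51. R1-2_DM, an R1 element with few reads, had 6 and 2 reads in crosslinked IP and 6 and 2 reads in crosslinked input, below the minimum mean of 10 counts for the test. It had 0 reads in non-crosslinked IP, which allows up to 1.31 RPM at the floor of 3 counts and 1.68 RPM by the 95% Wilson limit, and 4.3 reads in non-crosslinked input.

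**Figure D1:**
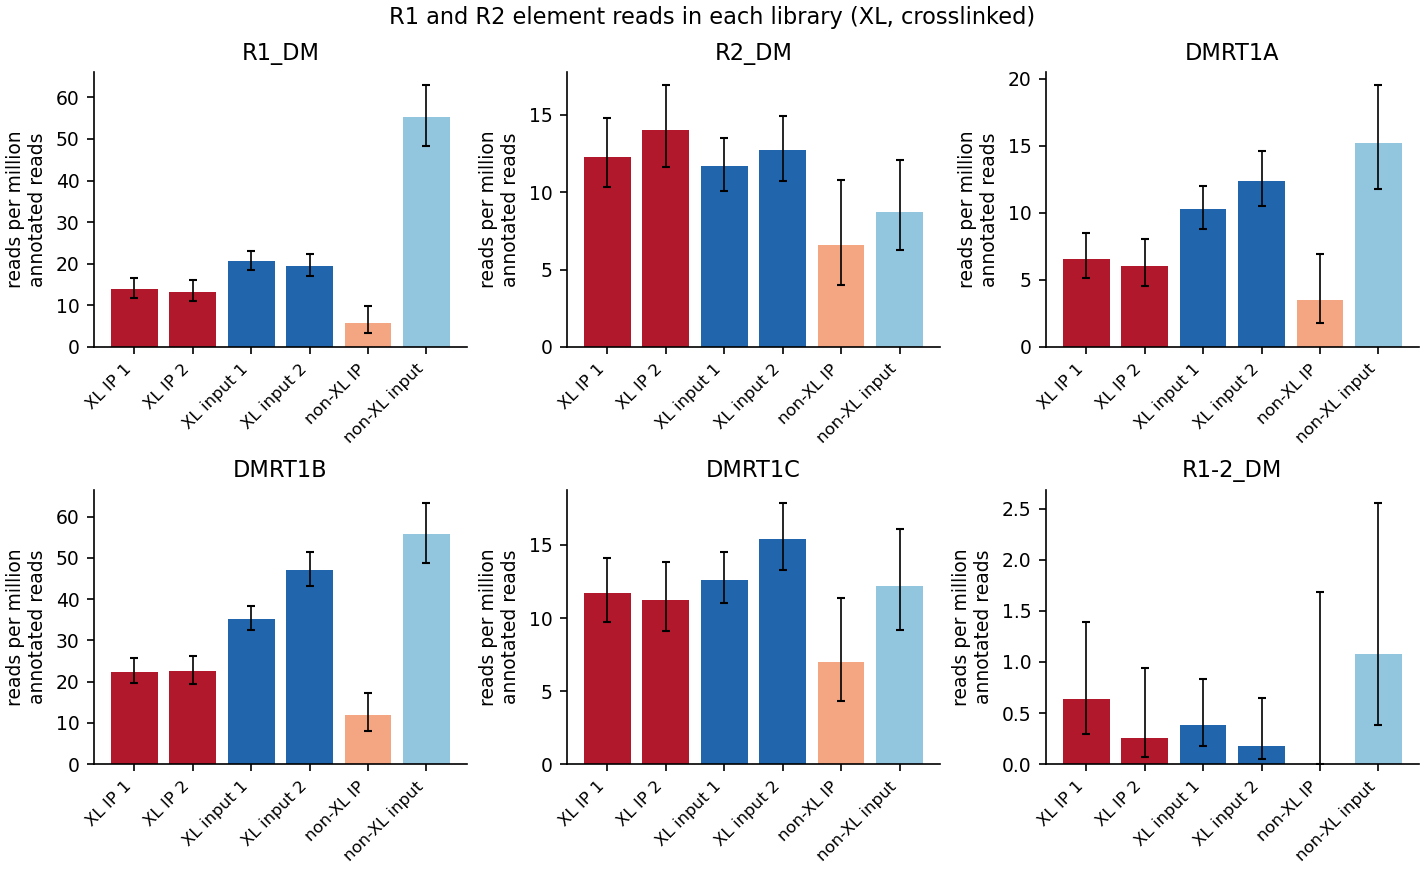
Level of each R1 and R2 element in the 6 libraries, in RPM, with each panel on its own scale. Bars are single libraries (XL, crosslinked) and error bars are 95% Wilson intervals of counting error. For R1_DM, DMRT1A and DMRT1B both crosslinked IP bars stand below both crosslinked input bars, and R1_DM in non-crosslinked input reaches 55.2.

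The other LINE elements gave a different spread of ratios in the same test. Of 29 tested, 9 were higher and 7 lower in crosslinked IP than in crosslinked input, with a median log2 ratio of 0.00 and a range of -1.02 to 1.87. The 5 R1 and R2 elements had a median of -0.60 and a range of -0.91 to 0.07, and the median over all items was -0.03. The telomeric element HETA (log2 ratio -0.33, adjusted p = 0.0932) and the Jockey-clade elements BS (-0.15, adjusted p = 0.51) and G_DM (-0.39, adjusted p = 0.17) were not called by edgeR. The I element I_DM (1.67), DOC (1.87), the F element FW_DM (1.34), the telomeric TART (0.90) and the LOA-clade Baggins1 (0.94) were called higher by edgeR. HETA was called lower with no count minimum (adjusted p = 0.04) and without crosslinked input replicate 1 (adjusted p = 0.0385). None of these 8 elements was among the 7 called lower, of which DOC2_DM (-1.02), G2_DM (-0.95) and DOC3_DM (-0.88), named here after their values were seen, had ratios close to those of DMRT1A and DMRT1B. Among LTR elements, 80 of 114 tested were higher and 10 lower, with a median log2 ratio of 1.35.

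The transcripts of the rDNA unit, in which R1_DM and R2_DM insert, did not all move one way. The 28S rRNA was lower in crosslinked IP than in crosslinked input by 0.77 on the log2 scale (ratio -0.77 ± 0.202, SE, n = 2 each; edgeR adjusted p = 0.00529). That call was lost with crosslinked IP replicate 2 left out (adjusted p = 0.222) and with either crosslinked input left out (adjusted p = 0.104 and 0.0939), while the ratio stayed between -0.81 and -0.76. The 5.8S rRNA was also lower (log2 ratio -0.91, edgeR adjusted p = 0.000652), and without crosslinked IP replicate 2 the ratio was -0.80 but not called (adjusted p = 0.0757). The pre-rRNA ratio was -0.58 (edgeR adjusted p = 0.0317), and each of the 4 fits that left out a crosslinked library lost the call (ratios -0.59 to -0.55, adjusted p = 0.117 to 0.378), as did scaling by library size only (adjusted p = 0.107). The pre-rRNA reads were close to those of 28S and 18S together, with 2351442 against 1770316 and 583701 in crosslinked IP replicate 1. Reads of the mature rRNAs may be counted in the pre-rRNA item, so it is not read here as a measure of the precursor alone. The 18S rRNA was not called (0.10, edgeR adjusted p = 0.721), and the 2S rRNA was higher (2.56, edgeR adjusted p = 1.81e-09). Of 9 items of the 28S pseudogenes, 6 were higher and 1 lower, with a median log2 ratio of 0.78, and some of them share one gene symbol between 2 annotation classes.

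**Figure D2:**
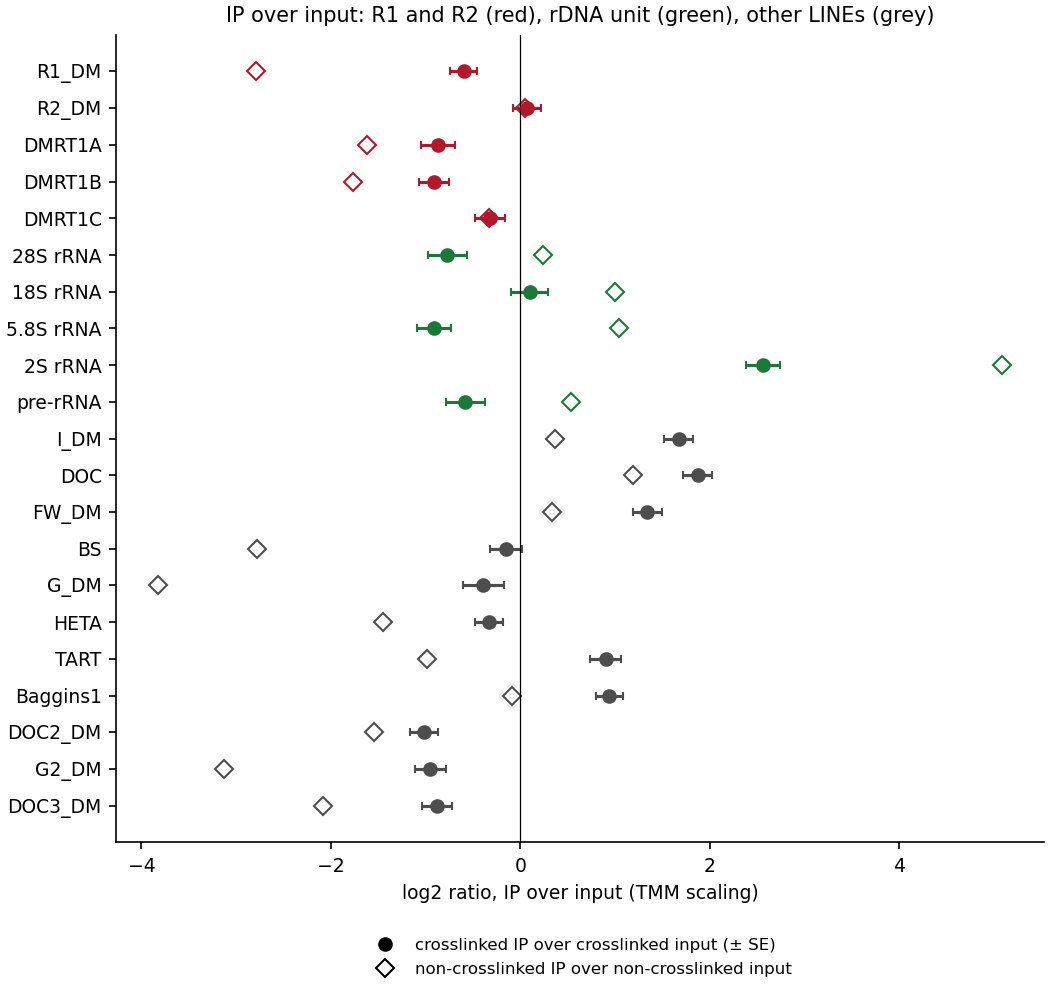
Log2 ratio of IP over input for the 5 tested R1 and R2 elements (red), the rDNA transcripts (green) and 11 other LINE elements (grey), with TMM scaling. Filled circles are crosslinked libraries with the standard error of the fit, and open diamonds are the single non-crosslinked pair. R1_DM shows a wide gap between its 2 symbols, at -0.60 and -2.79, while those of R2_DM and DMRT1C lie almost on each other.

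R1_DM and R2_DM reads were also set against the 28S rRNA, the host of both insertions, which puts the same counts on another scale. R1_DM had 74.1 and 68.9 reads per 1000000 28S reads in crosslinked IP, against 65.0 and 62.0 in crosslinked input. R2_DM had 65.5 and 72.5 reads per 1000000 28S reads in crosslinked IP, against 36.8 and 40.2 in crosslinked input. Both elements were thus higher in crosslinked IP on this scale, which carries the lower 28S level of that IP in its denominator. R2_DM gave 0.884 and 1.05 reads per R1_DM read in crosslinked IP, against 0.567 and 0.648 in crosslinked input. The groups did not overlap in any of these 3 ratios, and each gave p = 0.333 in a two-sided exact permutation test, the smallest value that 2 against 2 libraries allow. In the non-crosslinked pair there were 1.15 R2_DM reads per R1_DM read in IP, against 0.158 in input. Per 1000000 28S reads, that pair had 17.3 R1_DM reads in IP against 144 in input, and 19.9 R2_DM reads against 22.7. By mean, DMRT1C was also higher in crosslinked IP than in crosslinked input on the 28S scale (60.0 against 44.4). DMRT1A (33.1 against 36.0) and DMRT1B (118 against 130) were lower by mean, but their libraries overlapped. DMRT1A had 34.8 and 31.3 in crosslinked IP against 32.5 and 39.4 in crosslinked input, and DMRT1B 119 and 116 against 111 and 149.

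**Figure D3:**
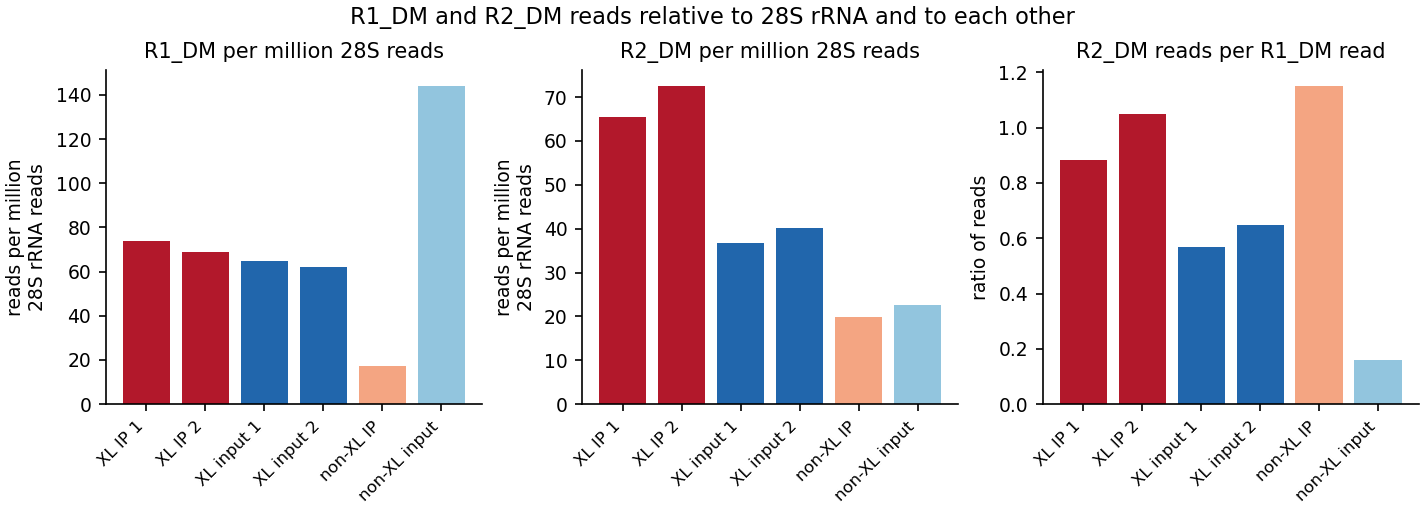
R1_DM and R2_DM reads per 1000000 28S rRNA reads, and R2_DM reads per R1_DM read, in each of the 6 libraries (XL, crosslinked). Bars are single libraries and start at 0. The ratio of R2_DM to R1_DM reads is 0.884 and 1.05 in crosslinked IP against 0.567 and 0.648 in crosslinked input, and lowest, at 0.158, in non-crosslinked input.

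The second comparison asked whether the ratio of IP over input differed between crosslinked and non-crosslinked cells. R1_DM was the one tested R1 or R2 element called. R1_DM had 5.69 RPM in non-crosslinked IP, from 13 reads, against 55.2 RPM in non-crosslinked input, from 222 reads. The crosslinked ratio exceeded the non-crosslinked ratio by 2.23 ± 0.374 on the log2 scale (SE; 95% interval 1.44 to 3.01; edgeR adjusted p = 0.00056). R1_DM was higher in crosslinked IP than in non-crosslinked IP, 2.40-fold by mean RPM, and lower in crosslinked input than in non-crosslinked input, at 0.364 times its level. Each non-crosslinked group is a single library, assumed in this fit to vary like the crosslinked replicates. Both of these differences enter the comparison, and each rests on a non-crosslinked library without a replicate. They are by RPM, while the difference of 2.23 is with TMM scaling, and was 2.73 with library size only. TMM factors were 1.187 and 1.2 in crosslinked IP against 0.6142 in non-crosslinked IP, so the IP difference is much smaller after scaling. The factors were 1.179 and 1.146 in crosslinked input against 0.8465 in non-crosslinked input, so the input difference is larger after scaling. It then makes up most of the 2.23. A higher level in crosslinked IP than in non-crosslinked IP was not particular to R1_DM. By mean RPM the fold was 2.01 for R2_DM, 1.80 for DMRT1A, 1.89 for DMRT1B and 1.63 for DMRT1C.

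The other elements gave smaller differences between the ratios. R2_DM had 6.57 RPM in non-crosslinked IP, from 15 reads, against 8.70 RPM in non-crosslinked input, from 35 reads, and its difference was 0.03 with a 95% interval of -0.91 to 0.97 (edgeR adjusted p = 0.989). DMRT1C had 7.01 RPM in non-crosslinked IP against 12.2 RPM in non-crosslinked input, with a difference of 0.03 (edgeR adjusted p = 0.991). DMRT1A had 3.50 RPM in non-crosslinked IP against 15.2 RPM in non-crosslinked input, with a difference of 0.80 (edgeR adjusted p = 0.389). DMRT1B had 11.9 RPM in non-crosslinked IP against 55.7 RPM in non-crosslinked input, with a difference of 0.87 (edgeR adjusted p = 0.167). DMRT1B was called with scaling by library size only (1.38, edgeR adjusted p = 0.0234) and without crosslinked input replicate 2 (1.13, edgeR adjusted p = 0.0197).

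One of the 5 tested elements was thus called higher in this comparison, while 5.83% of all items were called higher and 3.86% lower. Among other LINE elements, 9 of 29 were called higher and 0 lower, with a median difference of 1.19 on the log2 scale. The median was 0.80 for the 5 R1 and R2 elements and 0.10 for all items. With library size only, the median of all items was 0.59, mainly because TMM scaling raised the log2 ratio of the non-crosslinked pair. For R1_DM that ratio was 0.49 higher with TMM scaling, which here carries a prior count of 2, than by RPM. The scaling sets the sign for R2_DM, whose non-crosslinked log2 ratio was 0.05 with TMM scaling and -0.40 by RPM. For R1_DM the non-crosslinked log2 ratio was negative on both scales, at -2.79 with TMM scaling and -3.28 by RPM. Unannotated reads, which are not in these totals, were 5.54% and 5.99% of reads in crosslinked IP, 1.98% and 2.22% in crosslinked input, 12.9% in non-crosslinked IP and 4.07% in non-crosslinked input. Their part in the result was not tested.

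Copies were then examined one by one. Reads were found on 394 and 355 of the 626 copies in crosslinked IP, 426 and 434 in crosslinked input, 162 in non-crosslinked IP and 387 in non-crosslinked input. The non-crosslinked IP had the fewest reads in all and touched the fewest copies. Non-crosslinked input had fewer reads in all than either crosslinked IP, yet touched more copies than crosslinked IP replicate 2. The part of depth in these counts was not tested. A mean of at least 10 reads over the 6 libraries was reached by 11 copies, and over the 4 crosslinked libraries by 13, with 10 copies in both sets. The 13 were tested. Of these, 6 had a mean of at least 10 reads in crosslinked IP and in crosslinked input, 7 reached 10 in crosslinked input only, and 0 in crosslinked IP only. Copies in the second set passed through the group in which they were high, so the direction of their ratios is partly fixed by the minimum. Copies of one element can share reads, because estimated counts are fractional, so copies are not independent of each other.

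Of the 13 tested copies, 4 were lower and 0 higher in crosslinked IP than in crosslinked input, while 19.7% of 17778 tested features were lower and 22.2% higher. DESeq2 called 3 lower and 0 higher, and at an unadjusted p below 0.05 edgeR gave 5 lower and 0 higher. With no minimum, edgeR called 13 lower and 9 higher of 412 copies, against 5317 lower and 4691 higher of 104443 features. The one-sided count of copies thus depends on the minimum. All 4 called copies belonged to DMRT1B and DMRT1C, and of these DMRT1B_dup89 and DMRT1C_dup65 had means above 10 in both groups. DMRT1B_dup202 had 7.6 and 2.2 reads in crosslinked IP, against 48.8 and 69.0 reads in crosslinked input (log2 ratio -2.89 ± 0.565, SE, n = 2 each; edgeR adjusted p = 0.00305). Its ratio was -4.01 without crosslinked IP replicate 1, -2.29 without crosslinked IP replicate 2 and -1.84 with limma, and it was called each time. DMRT1B_dup89 had 18.5 and 15.0 reads in crosslinked IP, against 88.2 and 87.0 reads in crosslinked input (log2 ratio -1.76 ± 0.263, edgeR adjusted p = 0.000654). For both copies every IP library lay well below every input.

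DMRT1C_dup65 had 16.3 and 12.5 reads in crosslinked IP, against 73.5 and 63.3 reads in crosslinked input (log2 ratio -1.63 ± 0.233, SE, n = 2 each; edgeR adjusted p = 0.000489). DMRT1C_dup64 had a log2 ratio of -1.77 ± 0.509 (edgeR adjusted p = 0.0202). That call rested on crosslinked IP replicate 1, which had 3.2 reads where replicate 2 had 13.5, and without it the ratio was -0.89 (edgeR adjusted p = 0.111). DESeq2 did not call it either (adjusted p = 0.254). Of 83 copies of other LINE elements tested in the same fit, 49 were higher and 13 lower.

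The 5 tested copies of R1_DM all had ratios below 0 and none was called, from R1_DM_dup30 (log2 ratio -0.19) to R1_DM_dup28 (-0.75, edgeR adjusted p = 0.134). R1_DM_dup30 had 22.1 and 29.2 reads in crosslinked IP, against 56.9 and 35.2 reads in crosslinked input, and its ratio turned to 0.17 without crosslinked IP replicate 1. R1_DM_dup150 and R1_DM_dup168 had close counts in every library, and reads they share cannot be told apart. R2_DM_dup5 held 74.4% to 87.6% of R2_DM reads in each of the 6 libraries. It had 91.3 and 84.8 reads in crosslinked IP, against 155.8 and 121.7 reads in crosslinked input, a log2 ratio of -0.01 ± 0.144 (SE, n = 2 each; edgeR adjusted p = 0.986). The second tested R2_DM copy, R2_DM_dup11, had a log2 ratio of 0.53 (edgeR adjusted p = 0.303). No copy of DMRT1A reached the minimum, so its lower level is a sum over many copies with few reads each.

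**Figure D4:**
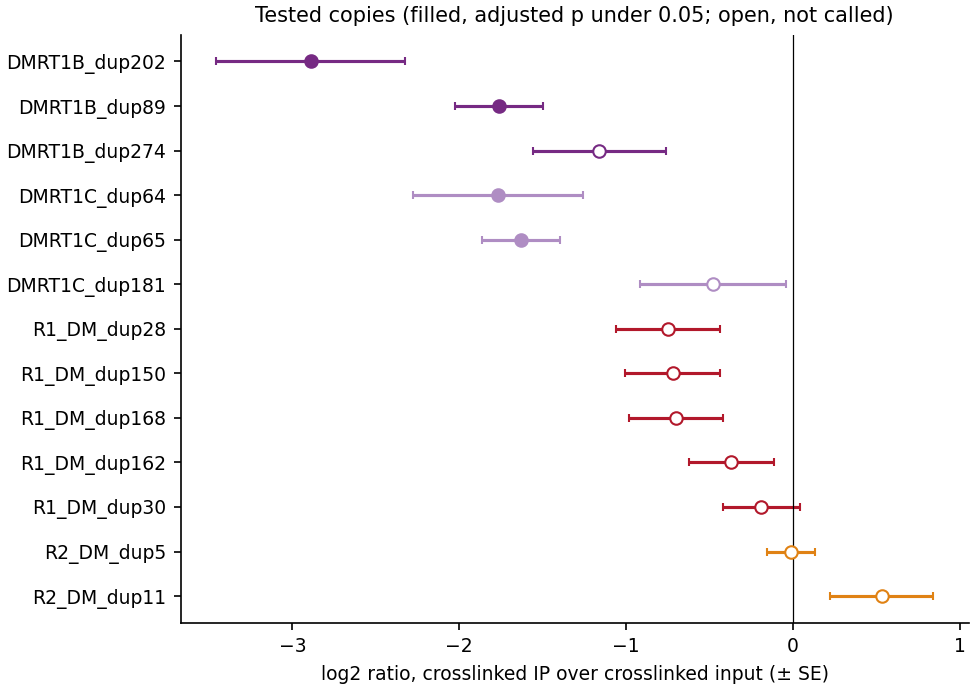
Log2 ratio of crosslinked IP over crosslinked input, with the standard error of the fit, for the 13 copies with a mean of at least 10 reads over the crosslinked libraries. Filled points passed an adjusted p of 0.05 and open points did not. The 4 filled points are copies of DMRT1B and DMRT1C between -2.89 and -1.63, and the 5 R1_DM copies lie between -0.75 and -0.19.

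Close to the minimum, the copies just inside were DMRT1B_dup274, with a mean of 10.2 reads over the crosslinked libraries, and DMRT1C_dup181, with 12.1. Just outside, R1_DM_dup131 had a mean of 9.5 reads, with 12.0 and 7.0 reads in crosslinked IP and 13.0 and 6.0 reads in crosslinked input. In all, 14 copies had means between 5 and 10. DMRT1B_dup163 had a mean of 9.6 reads over the crosslinked libraries and passed 10 only over all 6, with 5 and 7 reads in crosslinked IP, 11 and 15.5 reads in crosslinked input, 0 in non-crosslinked IP and 38 in non-crosslinked input.

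The element sums were then divided into the tested copies and the remaining copies, a split made after the copy values were seen and so given without a test. Because the minimum was mostly met through input, a low ratio in the tested copies and a higher one in the rest are favoured by the split itself. The 3 tested copies of DMRT1C had 3.39 and 3.75 RPM in crosslinked IP, against 8.57 and 11.4 RPM in crosslinked input. Its remaining 100 copies had 8.29 and 7.46 RPM in crosslinked IP, against 4.06 and 4.07 RPM in crosslinked input. Without DMRT1C_dup65, its copy of most reads, the log2 ratio of DMRT1C was 0.12 (edgeR adjusted p = 0.622).

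The 3 tested copies of DMRT1B had 3.39 and 2.58 RPM in crosslinked IP, against 9.85 and 15.2 RPM in crosslinked input. The remaining 264 copies had 19.0 and 19.9 RPM in crosslinked IP, against 25.4 and 31.9 RPM in crosslinked input. For R2_DM the tested copies had 10.9 and 12.5 RPM in crosslinked IP, against 10.9 and 11.8 RPM in crosslinked input. Its remaining 7 copies had 1.48 and 1.52 RPM in crosslinked IP, against 0.776 and 0.885 RPM in crosslinked input. Without R2_DM_dup5 the log2 ratio of R2_DM was 0.67 (edgeR adjusted p = 0.0703).

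The inputs were compared over the same split. The 5 tested copies of R1_DM had 11.0 and 9.63 RPM in crosslinked input, close to the 10.2 RPM of non-crosslinked input. Its remaining 98 copies had 9.65 and 9.9 RPM in crosslinked input, against 45.0 RPM in non-crosslinked input, so that crosslinked input averaged 0.217 times that level. The tested and remaining copies of DMRT1B and DMRT1C also differed in this way. The remaining copies of DMRT1B had 25.4 and 31.9 RPM in crosslinked input, against 50.5 RPM in non-crosslinked input, and its tested copies 9.85 and 15.2 RPM in crosslinked input, against 5.23 RPM in non-crosslinked input. The remaining copies of DMRT1C had 4.06 and 4.07 RPM in crosslinked input, against 9.44 RPM in non-crosslinked input, and its tested copies 8.57 and 11.4 RPM in crosslinked input, against 2.73 RPM in non-crosslinked input. The remaining copies have few crosslinked reads by the way they were chosen, so these differences between the 2 sets are no finding about where reads lay. In IP the tested copies of R1_DM had 7.07 and 7.84 RPM with crosslinking, against 2.9 RPM without. The remaining copies of R1_DM had 6.9 and 5.49 RPM in IP with crosslinking, against 2.79 RPM without. R1_DM_dup2 and R1_DM_dup48, named here after their values were seen, had the most R1_DM reads in non-crosslinked input. R1_DM_dup2 had 0 and 0.6 reads in crosslinked IP, 9 and 12 in crosslinked input, 0 in non-crosslinked IP and 24 in non-crosslinked input. R1_DM_dup48 had 1.2 and 1.3 reads in crosslinked IP, 8.5 and 6.4 in crosslinked input, 0.1 in non-crosslinked IP and 13.1 in non-crosslinked input. The remaining copies of R1_DM held 181.1 reads in non-crosslinked input in all, so most lay on other copies.

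**Figure D5:**
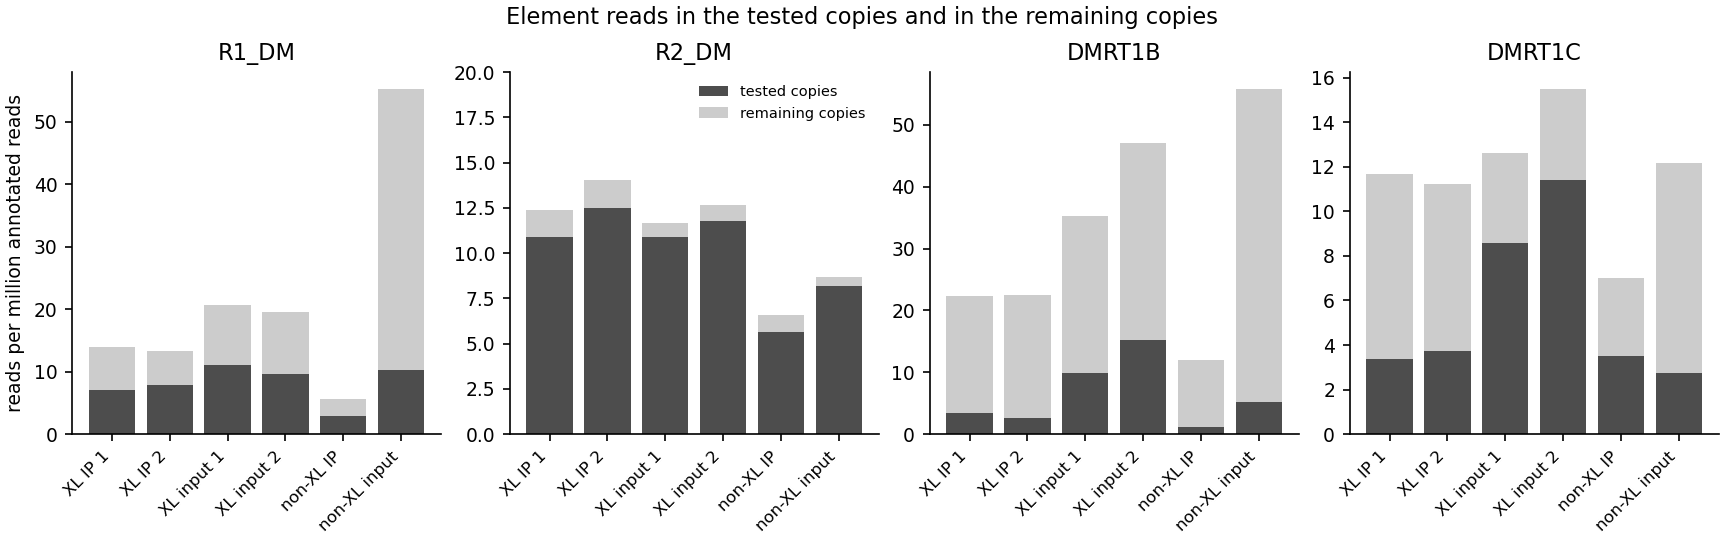
Level in RPM of 4 elements in each library (XL, crosslinked), stacked as tested copies (dark) and remaining copies (light), with each panel on its own scale. For R1_DM the dark part is 10.2 in non-crosslinked input, near both crosslinked inputs, and the light part is 45.0. Copies were divided by their crosslinked reads, which itself favours dark parts that are small in IP.

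The authors' deposited table of ratios per feature listed 141 of the 626 copies (22.5%), against 29.9% of all features. The formula of the ratio is not given in the sources used here. In the authors' deposited table the median ratio was 0.57 for R1 and R2 copies, against 2.24 for other LINE copies, 3.56 for LTR copies and 1.36 for all features listed. Of the 141 copies, 33 had a ratio above 1 in the authors' deposited table, against 26246 of the 39940 features it lists. By element, the median in the authors' deposited table was 0.669 for R1_DM (28 copies listed), 1.11 for R2_DM (3), 0.469 for DMRT1A (33), 0.524 for DMRT1B (74) and 0.348 for DMRT1C (3). The highest ratio in the authors' deposited table, 84.8 for DMRT1B_dup24, rested on few reads, with 6 and 8 in crosslinked IP and 0.14 and 0.17 in crosslinked input.

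Finally, the profile of R1_DM and of R2_DM over the 6 libraries was compared with 1968 items of at least 100 mean reads, as a Euclidean distance between mean-centred log2 values. The 5 nearest to R1_DM were the exons of Ptpmeg2 (distance 0.482), Mrp4 (0.59), Top1 (0.677) and sls (0.699), and the introns of CHES-1-like (0.876). DMRT1B came next, at rank 6, while the 28S rRNA stood at rank 700 and R2_DM at rank 817. The 5 nearest to R2_DM were the exons of spin (0.151), Trf4-1 (0.173), CG45050 (0.197), cg (0.215) and Eip63E (0.224), and the 28S rRNA stood at rank 1408. DMRT1C stood at rank 233 for R2_DM. The 5 nearest items were exons or introns of other genes for both elements, and neither the 28S rRNA nor the other insertion element was among them. The share of exons and introns among the 1968 items was not computed, so the kind of neighbour is no finding about the insertion elements.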

How the data were processed

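The eCLIP libraries were sequenced by the authors, who deposited, for each of the 6 libraries, every annotated feature with its estimated count and its RPM. The submitters' processing notes name bcl2fastq 2.19, STAR 2.5.2b, bedtools 2.29.0 and the builds dm6 and mm10, without roles. How fractional counts were shared is not given in the sources used here. The deposited RPM uses all reads. RPM values given here were recomputed over annotated reads only. The table of ratios that the authors deposited has no stated formula.

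Features with no line in a library were set to 0. Unannotated reads (1.98% to 12.9% of reads) were left out. Copies were summed per element, estimated counts were rounded, and items with a mean of at least 10 over the 4 crosslinked libraries were tested with edgeR 4.0.16 (TMM, quasi-likelihood) in R 4.3.3, with Benjamini-Hochberg adjustment and a threshold of 0.05. The fit was checked with simulated data. Standard errors came from the log2 ratio and its F statistic. Replicates differed by more than sampling noise (chi-square per degree of freedom 6.83 between crosslinked IPs and 9.48 between crosslinked inputs). Alternatives used DESeq2 1.42.0, limma 3.58.1 on log2(RPM + 1), other scalings, filters and left-out libraries. Figures used matplotlib 3.10.9.

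Every R1 and R2 element is named. Of copies, the 5 of highest mean over the 6 libraries and up to 3 largest called changes in each direction were to be named, along with rDNA items, a fixed list of LINE elements and the 5 items nearest to R1_DM and R2_DM. Other copies were named after their values were seen. Members, lists and tests were chosen with earlier results of these data known.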

Additional observations from a re-analysis of the deposited data

Results flagged for a closer look

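The ratio of IP over input differed between crosslinked and non-crosslinked cells for R1_DM, by 2.23 on the log2 scale in edgeR's test of the difference itself (adjusted p = 0.00056). Over the alternatives tried, this difference ranged from 2.06 to 2.73, with adjusted p from 2.49e-06 to 0.0044. It rests on 1 library in each non-crosslinked group, and depth in those libraries was 13 R1_DM reads in IP against 222 in input.

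The 28S rRNA differed the other way, by -1.0 on the log2 scale (edgeR adjusted p = 0.0279). With TMM scaling it had a log2 ratio of -0.77 with crosslinking and 0.24 without. By RPM the 28S level in non-crosslinked IP was 0.861 times that in non-crosslinked input, so the scaling sets the sign of that ratio. The difference was -0.50 (adjusted p = 0.372) with library size only, and each fit without a crosslinked library gave an adjusted p of 0.241 to 0.278.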

How the results depend on the processing

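Between crosslinked IP and crosslinked input 3 elements were called, 3 to 4 when each library was left out, and 2 to 4 over all alternatives. DMRT1A (log2 ratio -1.05 to -0.71) and DMRT1B (-1.15 to -0.67) were called under all alternatives tried, and R1_DM (-0.73 to -0.52) under all but DESeq2. The 4 called copies became 22 without a count filter (9 higher, 13 lower of 412 tested), 8 with limma, 0 at a minimum of 100 counts, where 1 copy was tested, and 3 to 4 when each library was left out. The 1 element called between the crosslinked and non-crosslinked ratios became 2 with library size only, and 1 to 2 when each crosslinked library was left out. The share ratio of 0.682 was 0.576 with rRNA out of the total. Other values that were not called changed sign, and the cause was not tested. Without a filter, R2_DM had -0.06, 18S rRNA -0.03, and the differences between ratios were -0.14 for R2_DM and -0.14 for DMRT1C. R2_DM_dup5 had 0.01 with DESeq2 and 0.02 without rRNA. Leaving out the copy of most reads, an alternative chosen after seeing the data, gave 0.12 for DMRT1C and a difference of -0.59 for R2_DM. With each library left out, the ranges were -0.03 to 0.17 for R2_DM, -0.46 to 0.17 for R1_DM_dup30 and -0.18 to 0.11 for R2_DM_dup5, and the differences ranged from -0.09 to 0.13 for R2_DM and from -0.18 to 0.20 for DMRT1C.

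The labels do not say whether IP and input libraries of one replicate number belong together. Differences between replicates were hardly correlated between IP and input (r = 0.0428 across 9455 items, which are not independent replicates), and this cannot decide it. With the replicate number as a block, 3 elements, 5 copies and 1 difference between ratios were called. Over all 9455 items, edgeR called 1882 higher and 1732 lower and DESeq2 1112 higher and 752 lower. For the difference between ratios, 551 were higher and 365 lower with TMM and 1041 higher and 147 lower with library size only. Over 17778 features, edgeR called 3939 higher and 3511 lower, DESeq2 2290 higher and 1298 lower, and limma 3750 higher and 4312 lower. Without a count filter, edgeR called 4691 higher and 5317 lower of 104443 features. Few copies could be tested, as 613 of 626 had means below the minimum over the crosslinked libraries. The part of depth in this was not tested.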
